A study of Mus musculus with 4 samples.

Results

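The genes of the T cell receptor complex and its proximal signalling chain were followed in RNA of lung γδ T cells from mice without Aire and mice with it. The set was chosen by gene symbol from a list of 38, of which all 38 stood among the 22865 symbols of the count table. They comprise the 4 CD3 chains, 6 kinases, 8 adaptors, 6 downstream effectors, the adhesion receptor Cd2 and 13 phosphatases and other brakes. The groups were Aire-/- and Aire+/+, each with 2 libraries of 500 sorted cells from 10 week old female C57Bl/6 mice, made by Smart-Seq2, which copies whole transcripts from few cells. In both groups the sorted cells were live, carried CD45 and the γδ receptor on their surface, and lacked TCRb, CD27 and the Vg1, Vg2, Vg4 and Vg5 chains. The labels name them Tgd17, a name used for γδ T cells that secrete interleukin-17. The labels name no separate animals or pools, so the p-values rest on the spread among these 4 libraries alone, and that spread can be technical. Aire, the thymic regulator that is deleted, had 0 counts in all 4 libraries, which allows up to 3 counts or 2.74 and 2.83 CPM in Aire-/- and 2.42 and 2.57 CPM in Aire+/+ libraries. The deleted gene thus gave no check of the genotype labels.

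A γδ T cell receptor has no signalling tail of its own and relies on the CD3 proteins, whose cytoplasmic motifs are phosphorylated by the Src family kinases Lck and Fyn. The phosphorylated motifs recruit the kinase Zap70, which phosphorylates the membrane adaptor Lat and the cytosolic adaptor SLP-76 (Lcp2), and on this scaffold Tec family kinases activate phospholipase C and Vav1. Csk, the phosphatases Ptpn6 and Ptpn22, and surface proteins such as Cd5 hold the chain in check. The γδ chain genes themselves were not analysed here.

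All 38 genes were detected in at least 3 of the 4 libraries, and 16 of them had 100 or more counts in every library. Libraries held 1106891 to 1265239 counts. Levels are given as CPM, read counts scaled to library size with the TMM factors of edgeR, and between genes only as CPM per kb of the longest annotated transcript. By that measure Ptpn6 had the highest mean, at 252 ± 43.9 CPM per kb (SD over the 4 libraries). Ubash3a had the lowest, at 0.274 ± 0.255 CPM per kb. Cd3g, at 221 ± 38.8 CPM per kb, overlapped Ptpn6 and stood above it in Aire+/+ replicate 2 (263 against 188). With the length of the annotated principal transcript Cd3g stood at 549 and Ptpn6 at 262 CPM per kb. With the median transcript length Ptpn6 stayed highest, at 1381 CPM per kb. The tests compared Aire-/- with Aire+/+ libraries by edgeR's quasi-likelihood test, with Benjamini-Hochberg adjustment over all 9783 genes tested and a call at an adjusted p under 0.05. Of the 38 genes 35 passed the filter on low counts, while Sh2d1a, Was and Ubash3a did not. A signed value that opens a parenthesis after a gene's levels is its log2 fold change, Aire-/- minus Aire+/+.

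The libraries also held RNA of genes that mark other cells, in unequal amounts. The 12 B cell markers summed to 3129 and 2409 CPM in the Aire-/- libraries and to 4920.4 and 3084 CPM in the Aire+/+ libraries, none of them at 0, and the B cell surface protein Ms4a1 alone reached 466 and 393 against 698 and 370.5 CPM. All 12 were tested and all 12 had a log2 fold change below 0, with a median of -0.46 and 0 called. Without adjustment, 4 of the 12 were lower and 0 higher at p under 0.05 by edgeR, against 2.77% and 2.8% of all genes. Both Aire-/- libraries lay below both Aire+/+ libraries for 6 and above them for 0, against 17.3% and 17.1% of all genes. The 9 myeloid markers summed to 52.1 and 110.3 CPM in Aire-/- and 235 and 74.4 CPM in Aire+/+ libraries, with Cd14 at 0 in both Aire-/- libraries, and the 6 natural killer markers summed to 42.0 and 145 against 92.1 and 83.8 CPM. Most of the myeloid spread lay in Lyz2, lysozyme, at 0.913 and 57.5 CPM in Aire-/- and 150.3 and 1.71 CPM in Aire+/+ libraries. The αβ T cell markers were near absent except for Cd8a, at 25 to 35 counts, and Cd4 had 2 to 5 counts. The 10 markers of Tgd17 cells, such as Il17a and Il23r, were all present and summed to 7067 and 7862 CPM in Aire-/- and 4679 and 6436 CPM in Aire+/+ libraries, with all 10 log2 fold changes above 0 and 0 called. Cd163l1 alone gave 3891 and 4356 CPM of these sums in Aire-/- and 2604 and 3723 CPM in Aire+/+ libraries. Without adjustment, 7 of the 10 markers were higher and 0 lower at p under 0.05 by edgeR, against 2.8% and 2.77% of all genes. Both Aire-/- libraries stood above both Aire+/+ libraries for 8 and below them for 0, against 17.1% and 17.3% of all genes. Their median log2 fold change was 0.50. Aire+/+ replicate 1 stood apart, with the highest B cell and myeloid sums and the lowest CD3 sum. In such bulk samples fewer cells of a type and less RNA per cell cannot be told apart, and the part of this mixture in the results below was not tested.

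**Figure D1:**
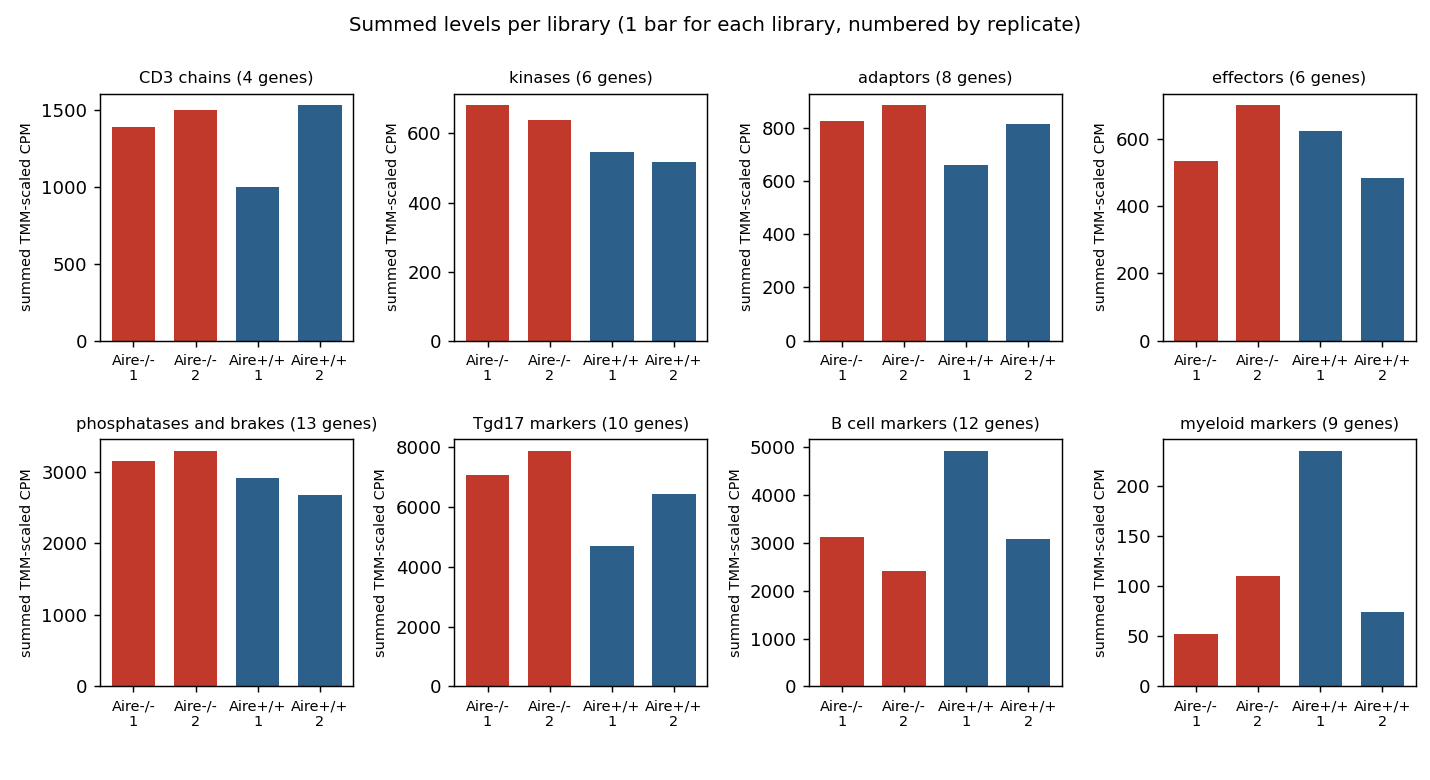
Summed TMM-scaled CPM (vertical axes, starting at 0) of 5 classes of receptor genes and of the Tgd17, B cell and myeloid marker lists, with 1 bar for each library. Aire+/+ replicate 1 had the lowest CD3 sum, at 1004 CPM, and the highest B cell sum, at 4920.4 CPM.

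No receptor gene passed the test in either direction. Over all genes 0% were called higher and 0.0204% lower, that is 0 and 2 genes, and DESeq2's Wald test and limma-voom also called 0 of the 38. Without adjustment, 4 of the 35 were higher and 1 lower at p under 0.05, or 11.4% and 2.9%, against 2.8% and 2.77% of all genes. The 4 were Lcp2, Zap70, Pag1 and Cd5 and the 1 was Cd2. Log2 fold changes, Aire-/- minus Aire+/+, lay above 0 for 26 of the 35 (74.3%, against 50.9% of all genes), with a median of 0.15 against 0.01 over all genes. Both Aire-/- libraries stood above both Aire+/+ libraries for 10 of the 35 and below them for 2, against 17.1% and 17.3% of all genes. Of the 35 estimates 27 lay within 0.5 of 0 on the log2 scale (77.1%, against 77.7% of all genes), so that share is near the background. When libraries were instead scaled to equal sums of the CD3 chains, the median of all genes moved to -0.24 and that of the receptor genes to -0.09, with 14 of the 35 above 0 against 26.6% of all genes.

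**Figure D2:**
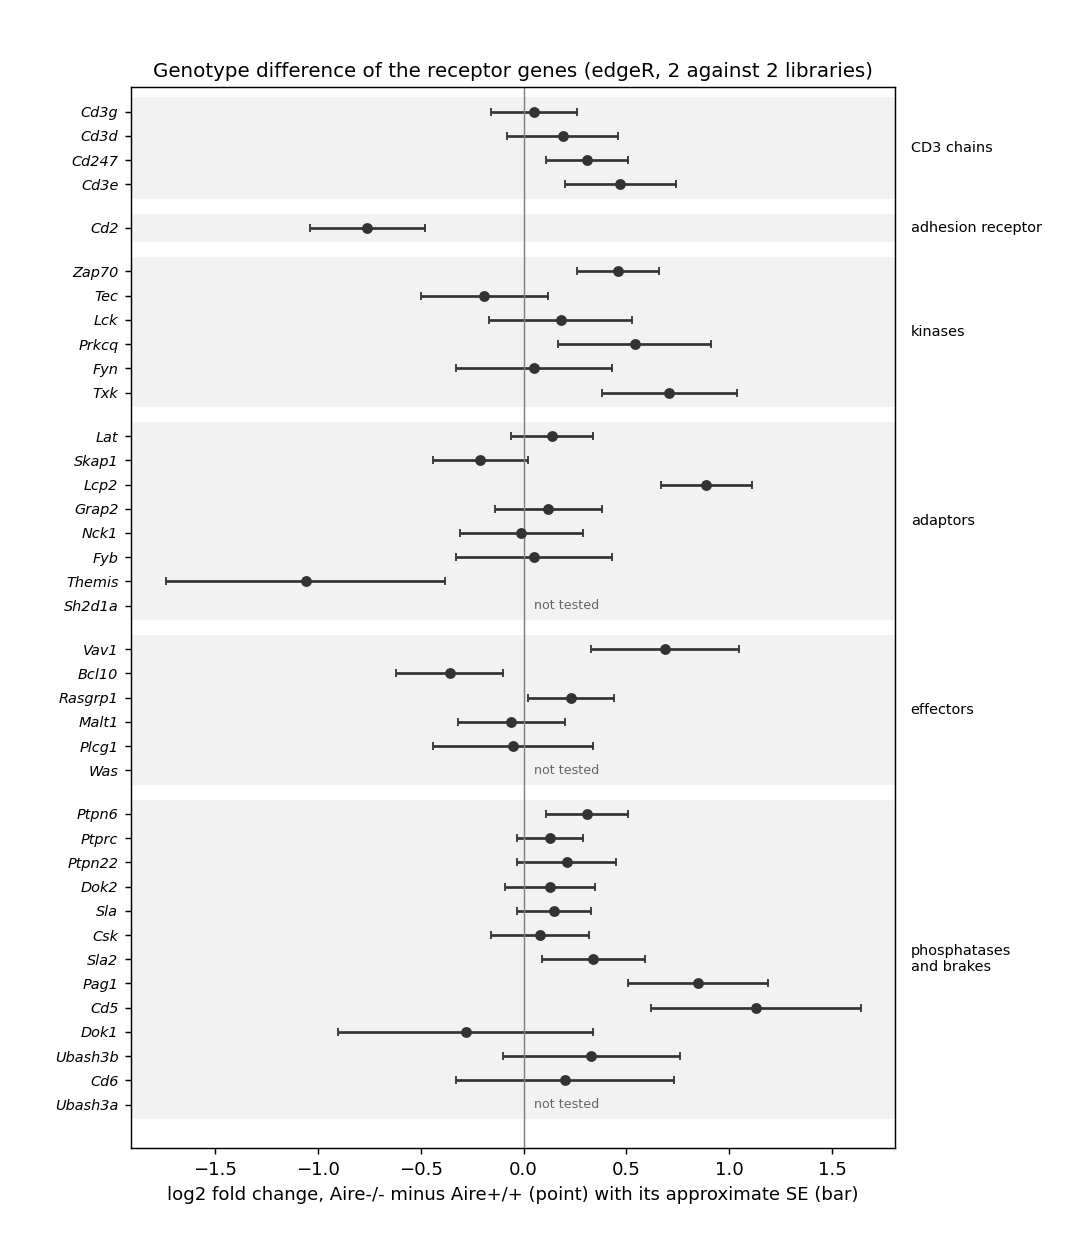
Log2 fold change, Aire-/- minus Aire+/+ (horizontal axis), of the 35 tested receptor genes by class, with points for the edgeR estimate and bars for its approximate SE. Lcp2 (0.89) and Cd5 (1.13) lie far to the right and Cd2 (-0.76) and Themis (-1.06) far to the left, and none passed the test.

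The CD3 chains were abundant in every library and not equally so. Cd3g, the γ chain of CD3 (chromosome 9, 44969572 to 44980431, GRCm38), had 599 and 633 counts in Aire-/- and 537 and 781 counts in Aire+/+ libraries. Cd3d, the δ chain (chromosome 9, 44981786 to 44987339), had 300 and 304 counts in Aire-/- and 207 and 381 counts in Aire+/+ libraries. For both genes the Aire+/+ libraries enclosed the Aire-/- libraries, with Aire+/+ replicate 1 the lowest and Aire+/+ replicate 2 the highest. Cd247, the ζ chain, which carries most of the complex's activation motifs (chromosome 1, 165788681 to 165877277), had 512 and 508 counts in Aire-/- and 409 and 508 counts in Aire+/+ libraries. Scaled to library size that was 468 and 479 against 331 and 435 CPM, so its groups did not overlap. Cd3e, the ε chain, which pairs with both the γ and the δ chain (chromosome 9, 44998740 to 45009627), had 111 and 150 counts in Aire-/- and 89 and 121 counts in Aire+/+ libraries, or 101 and 141 against 71.9 and 104 CPM, which overlap.

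Log2 fold changes were 0.05 (SE 0.21) for Cd3g, 0.19 (SE 0.27) for Cd3d, 0.31 (SE 0.20) for Cd247 and 0.47 (SE 0.27) for Cd3e, with adjusted p of 0.93 or more by edgeR. Their median of 0.25 turned to -0.06 without Aire+/+ replicate 1 and was 0.63 without Aire+/+ replicate 2. Per length, Cd3e was the lowest of the chains in each library, taking 6.82% and 8.81% of the summed CD3 level in Aire-/- and 6.81% and 6.22% in Aire+/+ libraries. Cd3g took 37.0% and 37.3% in Aire-/- and 41.2% and 40.3% in Aire+/+ libraries. Cd3g stood 4.24 to 6.48 times above Cd3e per kb across the 4 libraries, and 4.08 to 9.22 times with the median or the principal transcript in place of the longest. The order of Cd3g, Cd3d and Cd247 changed with that choice. With the longest transcript the 4 libraries of Cd3g overlapped those of Cd3d, and those of Cd3d overlapped those of Cd247.

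Cd3g and Cd3d start 1355 bases apart and are read in opposite directions. The 250 bases before the RefSeq start of each CD3 chain gene and of the adaptor Lcp2 are printed because the CD3 chains serve as the alternative scale of the libraries and Lcp2 is the gene that came nearest to a call. They lie at chr9:44981536-44981785 on the plus strand for Cd3d, chr9:45009612-45009861 on the minus strand for Cd3e, chr9:44980432-44980681 on the minus strand for Cd3g, chr1:165788431-165788680 on the plus strand for Cd247 and chr11:34046678-34046927 on the plus strand for Lcp2 (GRCm38.p6, RefSeq). Each is written 5′ to 3′ along the gene, and capitals mark the ETS core GGAAG or its complement CTTCC.
Cd3d: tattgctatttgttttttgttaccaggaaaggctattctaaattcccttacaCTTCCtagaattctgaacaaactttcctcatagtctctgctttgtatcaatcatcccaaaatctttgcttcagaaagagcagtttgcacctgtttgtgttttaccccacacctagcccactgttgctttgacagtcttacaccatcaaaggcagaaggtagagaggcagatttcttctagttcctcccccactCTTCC
Cd3e: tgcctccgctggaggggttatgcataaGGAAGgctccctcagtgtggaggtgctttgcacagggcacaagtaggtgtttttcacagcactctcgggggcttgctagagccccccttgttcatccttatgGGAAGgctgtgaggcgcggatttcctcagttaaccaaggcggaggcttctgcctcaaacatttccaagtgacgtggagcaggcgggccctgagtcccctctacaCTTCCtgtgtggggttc
Cd3g: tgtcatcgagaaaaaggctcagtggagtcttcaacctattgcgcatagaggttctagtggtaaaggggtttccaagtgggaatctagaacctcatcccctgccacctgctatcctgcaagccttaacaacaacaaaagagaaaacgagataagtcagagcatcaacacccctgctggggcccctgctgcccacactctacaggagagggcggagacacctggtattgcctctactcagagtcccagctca
Cd247: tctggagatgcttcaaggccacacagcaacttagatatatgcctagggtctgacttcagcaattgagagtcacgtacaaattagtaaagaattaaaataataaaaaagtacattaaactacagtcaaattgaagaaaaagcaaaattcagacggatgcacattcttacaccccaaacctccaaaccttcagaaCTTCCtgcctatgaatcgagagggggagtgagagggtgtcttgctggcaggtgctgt
Lcp2: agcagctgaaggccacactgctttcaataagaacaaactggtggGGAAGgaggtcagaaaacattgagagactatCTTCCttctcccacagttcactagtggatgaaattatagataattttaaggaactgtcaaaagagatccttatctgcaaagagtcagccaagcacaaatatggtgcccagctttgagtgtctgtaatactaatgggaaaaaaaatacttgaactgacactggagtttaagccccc

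The ETS core, the letters GGAAG on either strand, occurred 3 times in the window of Cd3e, 2 times in those of Cd3d and Lcp2, 1 time in that of Cd247 and 0 times in that of Cd3g. It occurred in 64.1% of all 32851 RefSeq windows of that length. The E box, CANNTG, stood in all 5 windows and in 66.2% of all windows. The TCF core, CTTTGA on either strand, occurred 2 times in the window of Cd3d and 1 time in that of Lcp2, against 13.8% of all windows with at least 1. The GATA core, GATAA on either strand, occurred in the windows of Cd3g and Lcp2, against 22.6% of all windows. The RUNX core TGTGGT and the TATA box TATAAA, on either strand, were in none of the 5 windows, against 14% and 12.4% of all windows. These are matches of letters and no evidence of binding, and no match of a motif overlapped a match of another in these windows.

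Among the kinases Zap70 stood above the others in each library. Zap70, the kinase that binds the phosphorylated CD3 motifs (chromosome 1, 36761798 to 36782818), had 382 and 321 counts in Aire-/- and 282 and 287 counts in Aire+/+ libraries. That was 349 and 303 CPM against 228 and 246 CPM, without overlap, a log2 fold change of 0.46 (SE 0.20, unadjusted p = 0.036, adjusted p = 0.89, edgeR). Per kb Zap70 was 3.27 to 6.64 times as high as Lck, the Src family kinase that activates it, and 7.01 to 14.8 times as high as Fyn, the other such kinase. With the median transcript length these ranges were 2.17 to 4.41 and 8.70 to 18.4. Lck stood at 51.1 and 68.8 CPM in Aire-/- and 67.9 and 37.6 CPM in Aire+/+ libraries, which overlap (log2 fold change 0.18, SE 0.35, adjusted p = 0.98). Fyn had 41 and 53 counts in Aire-/- and 36 and 65 counts in Aire+/+ libraries, where the Aire+/+ libraries enclosed the Aire-/- libraries (0.05, SE 0.38).

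Of the Tec family, Tec itself stood at 123 and 87.7 CPM in Aire-/- and 157 and 83.0 CPM in Aire+/+ libraries (-0.19, adjusted p = 0.98). Txk, also called Rlk, stood at 48.4 and 74.5 CPM in Aire-/- and 37.2 and 37.6 CPM in Aire+/+ libraries. Its groups did not overlap, and its log2 fold change was 0.71 (SE 0.33, adjusted p = 0.91), or 0.37 without Aire-/- replicate 2. Prkcq, the protein kinase C of the T cell contact zone, stood at 72.2 and 54.7 CPM in Aire-/- and 28.3 and 59.0 CPM in Aire+/+ libraries (0.54, adjusted p = 0.94), which overlap. Its log2 fold change was 0.10 when Aire+/+ replicate 1 was left out, 1.16 when Aire+/+ replicate 2 was, and 0.33 when Aire-/- replicate 1 was. Of the 6 kinases 5 lay above 0, and their median was 0.32 on the log2 scale, a value that ran from 0.20 to 0.55 with any 1 library left out and was 0.05 with CD3 scaling.

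**Figure D3:**
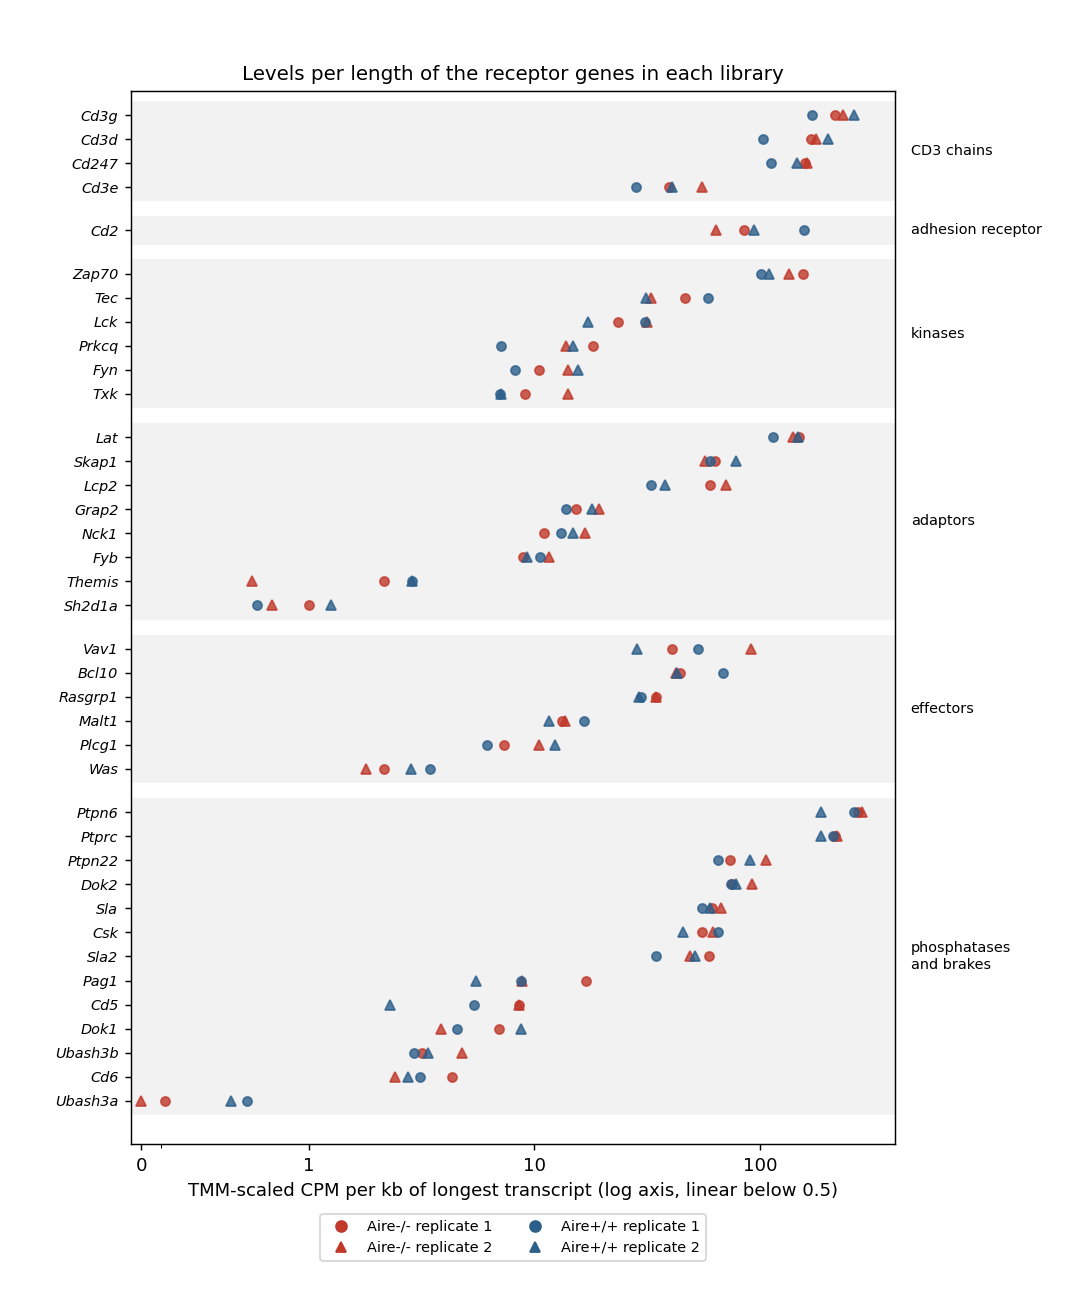
TMM-scaled CPM per kb of the longest transcript (horizontal axis, logarithmic above 0.5) of all 38 genes in each of the 4 libraries, by class and in order of the mean level. Zap70, Lat, Ptpn6 and Ptprc lead their classes or share the lead, and Sh2d1a, Ubash3a, Themis and Was lie lowest in theirs.

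Lat led the adaptors. Lat, the membrane scaffold of the chain (chromosome 7, 126363824 to 126369570), stood at 305 and 288 CPM in Aire-/- and 234 and 303 CPM in Aire+/+ libraries, which overlap (log2 fold change 0.14, SE 0.20, adjusted p = 0.98). Its mean of 138 ± 16.1 CPM per kb lay clear of Skap1, a Fyb-binding adaptor of integrin activation, at 64.8 ± 9.64 CPM per kb (SD over the 4 libraries). Skap1 had 145 and 127 counts in Aire-/- and 156 and 193 counts in Aire+/+ libraries (-0.21, adjusted p = 0.98), which overlap once scaled.

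Lcp2 had the smallest p of all 38 genes. Lcp2 (chromosome 11, 34046920 to 34092295) had 239 and 275 counts in Aire-/- and 148 and 162 counts in Aire+/+ libraries, or 218 and 259 CPM against 119.6 and 139 CPM. Both Aire-/- libraries lay above both Aire+/+ libraries, with means of 239 ± 29.0 and 129 ± 13.4 CPM (SD, n = 2 each). The log2 fold change was 0.89 (SE 0.22, unadjusted p = 0.0014, adjusted p = 0.67, edgeR), and it did not pass. It lay between 0.65, with libraries scaled to the CD3 chains, and 1.01, without Aire-/- replicate 1, over the 14 alternatives run for this gene, with adjusted p from 0.069 to 1.0. Within a library the ratio of Lcp2 to Lat per kb was 0.403 and 0.508 in Aire-/- and 0.288 and 0.258 in Aire+/+ libraries, without overlap. This ratio rests on the same Lcp2 values and is no separate evidence. Another annotated gene, 4930469K13Rik, overlaps Lcp2 on the opposite strand, and whether counting used strand is not given in the sources used here.

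The other adaptors were lower. Grap2 (Gads), which joins Lat to SLP-76, averaged 16.6 ± 2.46, Nck1, a link to the actin cytoskeleton, 14.0 ± 2.49, and Fyb (ADAP), the partner of Skap1, 10.1 ± 1.26 CPM per kb (SD over the 4 libraries). Their log2 fold changes lay between -0.01 and 0.12. Themis, a regulator of receptor signalling known from developing αβ T cells, had 12 and 3 counts in Aire-/- and 18 and 17 counts in Aire+/+ libraries (-1.06, SE 0.68, adjusted p = 0.94). Its Aire-/- values lay below its Aire+/+ values, and Aire-/- replicate 2 was the lowest. The log2 fold change of Themis was -0.41 without that library and -2.31 without Aire-/- replicate 1. Sh2d1a (SAP), the adaptor of SLAM family receptors, had 3 and 2 counts in Aire-/- and 2 and 4 counts in Aire+/+ libraries and was too low to test. Of the 7 adaptors tested 4 lay above 0, with a median of 0.05 that was -0.22 with CD3 scaling and -0.14 without Aire-/- replicate 2.

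The effectors gave no common direction: 2 of the 5 tested lay above 0, and their median was -0.05 on the log2 scale. Rasgrp1, which couples diacylglycerol to Ras, was the steadiest, at 198 and 192 counts in Aire-/- and 193 and 178 counts in Aire+/+ libraries. Scaled, that was 181 CPM in each Aire-/- library and 156 and 152 CPM in Aire+/+ libraries, without overlap (0.23, SE 0.21, adjusted p = 0.97). Vav1, the exchange factor for Rac, varied most, at 132 and 288 counts in Aire-/- and 196 and 99 counts in Aire+/+ libraries. Its log2 fold change of 0.69 (SE 0.36, adjusted p = 0.91) became -0.02 without Aire-/- replicate 2 and 1.20 without Aire+/+ replicate 1.

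Bcl10, of the complex that links the receptor to NF-κB, stood at 105 and 101 CPM in Aire-/- and 162 and 102 CPM in Aire+/+ libraries (-0.36, adjusted p = 0.95), and Aire+/+ replicate 1 alone stood apart. Without that library the log2 fold change of Bcl10 was 0.01. Malt1, the protease that Bcl10 binds, had 93 and 93 counts in Aire-/- and 131 and 87 counts in Aire+/+ libraries (-0.06). Plcg1, the phospholipase that starts the calcium signal, had 41 and 57 counts in Aire-/- and 39 and 74 counts in Aire+/+ libraries (-0.05, SE 0.39), and the Aire+/+ libraries enclosed the Aire-/- libraries. Was, the actin regulator mutated in Wiskott-Aldrich syndrome, had 5 and 4 counts in Aire-/- and 9 and 7 counts in Aire+/+ libraries, and was too low to test.

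Cd2, the adhesion receptor of T cells that mouse B cells also carry, was the receptor gene with the smallest p on the lower side. Cd2 (chromosome 3, 101275899 to 101287939) had 107 and 78 counts in Aire-/- and 224 and 127 counts in Aire+/+ libraries, or 97.7 and 73.5 CPM against 181 and 109 CPM. Both Aire-/- libraries lay below both Aire+/+ libraries, and the log2 fold change was -0.76 (SE 0.28, unadjusted p = 0.020, adjusted p = 0.89, edgeR). Without Aire+/+ replicate 1, the library with the highest B cell sum, it was -0.35. Set against the summed CD3 chains, Cd2 stood at 0.0703 and 0.0489 in Aire-/- and 0.180 and 0.0709 in Aire+/+ libraries, where Aire+/+ replicate 2 differed from Aire-/- replicate 1 by little. The part of B cells in this difference was not tested.

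The brakes were led by a pair of phosphatases that B cells and myeloid cells also express, and the part of those cells in their levels was not tested. Ptpn6 (SHP-1) stood at 629 and 657 CPM in Aire-/- and 607 and 433 CPM in Aire+/+ libraries (log2 fold change 0.31, SE 0.20, adjusted p = 0.94). Ptprc (CD45), which both frees Src kinases from inhibition and can oppose them, stood at 1232 and 1269 CPM in Aire-/- and 1213 and 1073 CPM in Aire+/+ libraries (0.13, SE 0.16, adjusted p = 0.98). Both genes had their Aire-/- libraries above their Aire+/+ libraries, by a margin that was small for each. Without Aire+/+ replicate 2 the log2 fold change of Ptpn6 was 0.08 and that of Ptprc 0.04. Ptpn22, a phosphatase of Lck and Zap70, stood at 203 and 295 CPM in Aire-/- and 180.2 and 249 CPM in Aire+/+ libraries (0.21, adjusted p = 0.98), which overlap. Per kb Ptpn6 was 2.08 to 4.02 times as high as Ptpn22, and up to 10.3 times with the median transcript length.

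Of 12 brakes tested 11 lay above 0, with a median of 0.21 that was -0.02 with CD3 scaling, and 5 had both Aire-/- libraries above both Aire+/+ libraries and 0 below, against 17.1% and 17.3% of all genes. Pag1, the membrane anchor of the inhibitory kinase Csk, had 153 and 77 counts in Aire-/- and 89 and 53 counts in Aire+/+ libraries (0.85, SE 0.34, unadjusted p = 0.027, adjusted p = 0.89, edgeR). It stood highest in Aire-/- replicate 1, at 139.7 CPM, while Aire-/- replicate 2 (72.6 CPM) and Aire+/+ replicate 1 (71.9 CPM) were nearly equal, and without Aire-/- replicate 1 the log2 fold change was 0.31. Csk itself stood at 152 and 169.7 CPM in Aire-/- and 179 and 126 CPM in Aire+/+ libraries (0.08), which overlap.

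Cd5, a surface brake whose level follows receptor signal strength in thymocytes, was low. Cd5 (chromosome 19, 10717116 to 10739002) had 28 and 27 counts in Aire-/- and 20 and 8 counts in Aire+/+ libraries, or 25.6 and 25.5 CPM against 16.2 and 6.84 CPM, without overlap. Its log2 fold change of 1.13 (SE 0.51, unadjusted p = 0.046, adjusted p = 0.89, edgeR) became 0.65 without Aire+/+ replicate 2 and 1.87 without Aire+/+ replicate 1. Cd6, its neighbour in family and genome, had 22 and 12 counts in Aire-/- and 18 and 15 counts in Aire+/+ libraries (0.20, SE 0.53).

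Most of the adaptor-like brakes were abundant by comparison, but Dok1 was not. Mean levels over the 4 libraries were 79.9 for Dok2, 61.0 for Sla, 48.8 for Sla2 and 6.01 for Dok1, against 6.19 CPM per kb for Cd5. Sla (SLAP), which sends CD3 chains to degradation in thymocytes, stood at 402 and 441 CPM in Aire-/- and 365 and 395 CPM in Aire+/+ libraries (0.15, adjusted p = 0.98), without overlap, and Sla2, its relative, at 177 and 146 against 103 and 153 CPM (0.34, adjusted p = 0.95). Dok2 stood at 135 and 165 CPM in Aire-/- and 133 and 140.3 CPM in Aire+/+ libraries (0.13), and its relative Dok1 at 13.7 and 7.54 against 8.89 and 17.1 CPM (-0.28). The Sts proteins, phosphatases that dampen Zap70, were scarce. Ubash3b had 22 and 32 counts in Aire-/- and 23 and 25 counts in Aire+/+ libraries (0.33, SE 0.43), and Ubash3a had 1 and 0 counts in Aire-/- and 5 and 4 counts in Aire+/+ libraries. Both Aire-/- libraries lay below both Aire+/+ libraries for Ubash3a, at 0.913 and 0 CPM against 4.04 and 3.42 CPM, and the count of 0 allows up to 3 counts, or 2.83 CPM. The gene was too low to test.

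**Figure D4:**
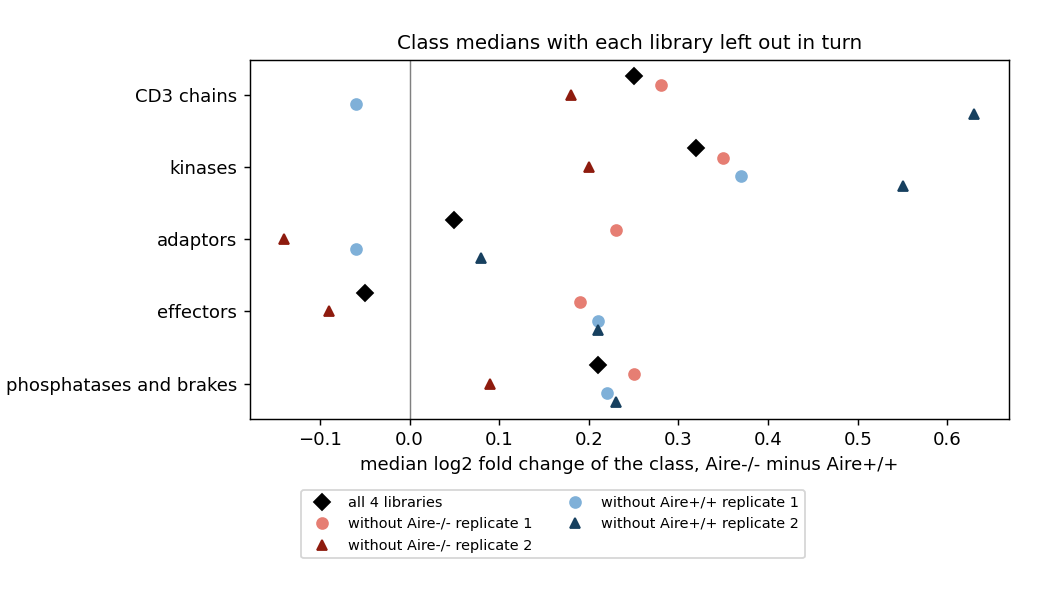
Median log2 fold change, Aire-/- minus Aire+/+ (horizontal axis), of 5 classes of receptor genes with all 4 libraries (black diamonds) and with each library left out. The kinases and the brakes stayed above 0 in every such fit, although the brakes were at -0.02 with CD3 scaling, while the CD3 chains, the adaptors and the effectors had medians on both sides of 0.

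By class the medians were 0.25 for the CD3 chains, 0.32 for the kinases, 0.05 for the adaptors, -0.05 for the effectors and 0.21 for the brakes, with 0 genes called in each by edgeR. In summed level the kinases reached 681 and 638 CPM in Aire-/- and 547 and 518 CPM in Aire+/+ libraries. The brakes reached 3150.3 and 3291 against 2915 and 2676 CPM, and neither class overlapped. These sums are weighted to a few genes. Zap70 alone gave 349 and 303 CPM in Aire-/- and 228 and 246 CPM in Aire+/+ libraries. Ptprc alone gave 1232 and 1269 against 1213 and 1073 CPM, and Ptpn6 629 and 657 against 607 and 433 CPM. The adaptors reached 827 and 884 CPM in Aire-/- and 659 and 815 CPM in Aire+/+ libraries, also apart but by a small margin. Among the tested adaptors Lcp2 was the 1 with both Aire-/- libraries above both Aire+/+ libraries, at 218 and 259 against 119.6 and 139 CPM. Themis was the 1 that lay below in both. Over all genes these shares were 17.1% and 17.3%, so 1 of 7 in each direction is near the background. The CD3 chains, at 1390.2 and 1504 against 1004 and 1532 CPM, and the effectors, at 533 and 699 against 621 and 483 CPM, overlapped. Divided by the CD3 sum of the same library, the kinases stood at 0.490 and 0.424 in Aire-/- libraries against 0.545 and 0.338 in Aire+/+ libraries, and the brakes at 2.27 and 2.19 against 2.90 and 1.75. On that scale the Aire+/+ libraries enclosed the Aire-/- libraries in both classes. A permutation of 2 against 2 libraries cannot give a two-sided p below 0.333, and no test was made over a class.

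Of 54 further genes of the pathway, 50 were tested and 0 were called in either direction by edgeR, DESeq2 or limma-voom. Without adjustment, 2 were higher and 0 lower at p under 0.05, against 2.8% and 2.77% of all genes, so the count is near the background. Of the 50, 31 lay above 0 (62.0%, against 50.9% of all genes), with a median of 0.11. The 2 were Ptpn7, a phosphatase of MAP kinases, at 176 and 161 CPM in Aire-/- and 112 and 102 CPM in Aire+/+ libraries (0.66, SE 0.22, adjusted p = 0.83), and Wipf1, which binds and stabilises the Was protein, at 42.0 and 43.4 against 19.4 and 29.1 CPM (0.82, SE 0.36, adjusted p = 0.89). Neither overlapped between genotypes. Of the 50, 11 had both Aire-/- libraries above both Aire+/+ libraries and 3 had them below, against 17.1% and 17.3% of all genes. Lax1, a Lat-like adaptor (0.41), and Cish, a cytokine- and receptor-induced inhibitor (0.42), had adjusted p of 0.91. On the lower side Nras, the Ras protein, stood at 139 and 127 CPM in Aire-/- and 168 and 199 CPM in Aire+/+ libraries (-0.46, SE 0.22, adjusted p = 0.91).

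Among the further brakes Cbl, a ubiquitin ligase that removes activated kinases, was at 0.40 (adjusted p = 0.93). The genes named for their level were the integrin chain Itgal (0.20), the adaptor Sash3 (0.15), the calcineurin target Nfatc3 (-0.11), the diacylglycerol kinase Dgka (0.17) and the phosphatase Ptpn2 (0.11), each with an adjusted p of 0.97 or more. Across the 3 lists 10 of 15 further proximal genes, 11 of 20 genes of the calcium, NF-κB and Ras relay and 10 of 15 further brakes lay above 0.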

How the data were processed

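Libraries were made by Smart-Seq2, per the labels' protocols, from 500 sorted cells each, per the series' design text. The deposited table holds raw counts, whole numbers for each gene symbol and library, per the file headers. The build mm10, Cufflinks 2.2.1 and TopHat2 2.0.10 are listed, with no role given, per the submitters' processing notes. The counting of reads (annotation, strand, shared reads, PCR copies) is not given in the sources used here. In its usual form Smart-Seq2 adds no molecular identifiers, so limits on counts of 0 (3 counts) cover counting error only. Of the 38 genes 20 overlap a gene on the opposite strand and 13 one on the same strand, and their reads may be shared.

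The test was the quasi-likelihood test of edgeR 4.0.16 (R 4.3.3) on genotype alone, using TMM factors and filterByExpr (minimum count 10, minimum total 15), which kept 9783 genes. CPM are counts over the TMM-scaled library sizes of the tested genes. The SE is approximate, the absolute log2 fold change over the square root of F. Transcript lengths came from GENCODE M21 and promoter windows from RefSeq (GRCm38), which listed 29 of the 38 genes. Alternatives were DESeq2 1.42.0 (Wald test or size factors), limma-voom (limma 3.58.1), upper-quartile factors, other filters (a count above 0, or 10 CPM in 2 libraries), robust dispersion, Rn45s left out, a threshold of 0.1, CD3 scaling, removal of the length and GC trend (loess span 0.5), the replicate number as a block, other transcript lengths and each library left out. The steps were tested on simulated data. The genes with values in every library are the CD3 chains, Cd2, and in each other class the 3 highest per kb and the 3 with the smallest p, and further members were named to account for all 38. Of the related lists the 3 highest and the 3 with the smallest p were named, apart from some that are not reported here. The members, lists and tests were chosen with earlier results of these data known. Figures used Python 3.11.15 and matplotlib 3.10.9.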

Additional observations from a re-analysis of the deposited data

How the results depend on the processing

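The count of 0 called receptor genes and 0 called related genes was the same under the 14 alternatives run for it, which did not include CD3 scaling or removal of the length and GC trend. Over all genes the 2 calls became 1 with limma-voom, 47 with no filter beyond a count above 0, 6 with the replicate number as a block and 12 to 63 with 1 library left out, where the lone library is assumed to vary like the others. The labels give both genotypes replicates 1 and 2, but nothing says that the numbers pair libraries, and deviations of same-numbered libraries from their genotype mean correlated at -0.077 over 9783 genes. The replicate block turned no direction among the named receptor genes. The median log2 fold change of the receptor genes was -0.09 with libraries scaled to the CD3 chains, 0.11 with upper-quartile factors, 0.18 with the length and GC trend removed and 0.03 to 0.31 with 1 library left out. With 1 library left out, class medians ran from -0.06 to 0.63 (CD3 chains), 0.20 to 0.55 (kinases), -0.14 to 0.23 (adaptors), -0.09 to 0.21 (effectors) and 0.09 to 0.25 (brakes). Scaled to the CD3 chains they were 0.05 (kinases), -0.22 (adaptors), -0.22 (effectors) and -0.02 (brakes), while all genes moved to -0.24, and the effectors turned to 0.01 with limma-voom. That scaling also turned Cd3g (-0.14), Lat (-0.07), Lck (-0.14), Ptprc (-0.14) and Rasgrp1 (-0.02). With 1 library left out Bcl10 ran from -0.66 to 0.01, Cd3d from -0.23 to 0.74, Cd3g from -0.23 to 0.40, Lat from -0.04 to 0.33, Lck from -0.18 to 0.66, Ptpn22 from -0.08 to 0.47, Tec from -0.57 to 0.34 and Vav1 from -0.02 to 1.20. The cause was not tested. Of 22 named receptor genes 12 kept their direction under the 14 alternatives run for each. Of the 15 genes that are among the 3 highest of their class per kb, 14 stayed there with the median transcript length and 14 with that of the principal transcript, an alternative added after seeing the data. With 2 libraries a genotype, differences may be missed, and not only small ones. Cd14, with 0 counts in both Aire-/- and 32 and 11 counts in Aire+/+ libraries, had an adjusted p of 0.45 by edgeR. Cd14 is a myeloid marker, and the sums of those markers were unequal among the libraries. The part of myeloid cells in its difference was not tested.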

Other observations

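Blk, a Src family kinase of B cells and of interleukin-17 γδ T cells, was set beside Lck after the values were seen. Blk stood at 425 and 535 CPM in Aire-/- and 395 and 469 CPM in Aire+/+ libraries (log2 fold change 0.15, SE 0.20, adjusted p = 0.98, edgeR), which overlap. Per kb it was 7.80 and 7.30 times as high as Lck in Aire-/- and 5.47 and 11.7 times as high in Aire+/+ libraries. B cell markers were abundant in the same libraries, and which cells carried Blk was not tested.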
